A study of Mus musculus with 6 samples.

Results

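The nuclear-encoded genes of oxidative phosphorylation were followed in whole mouse ovary after cyclophosphamide (CTX) and in control ovary. They were taken by name as the genes whose symbols begin with Nduf (followed by a, b, c, s or v), Uqcr, Cox4 to Cox8 or Atp5, plus Sdha, Sdhb, Sdhc and Sdhd. Names containing -ps, which mark pseudogenes, were left out. The rule found 93 of the 46078 genes in the deposited tables. By role, 36 are subunits of complex I, 4 of complex II, 9 of complex III, 19 of complex IV and 15 of complex V. A further 7 are assembly factors of complex I (Ndufaf genes), and 3 share a name but not a place in a complex (Ndufa4l2, Atp5s and Atp5sl). Ndufa4, named for complex I, was counted in complex IV, where its protein is now placed.

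Oxidative phosphorylation takes place in the inner membrane of mitochondria. Complexes I to IV pass electrons from NADH and succinate to oxygen, complexes I, III and IV pump protons as they do so, and complex V, the ATP synthase, uses the proton gradient to make ATP. Most subunits are made from nuclear genes and imported, while a few core subunits are encoded in mitochondrial DNA. In the ovary, steroid-making luteal cells and oocytes are both known to be rich in mitochondria.

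The study compared CTX and control by RNA sequencing of whole ovaries from C57BL/6 mice aged 8 to 9 weeks, with 3 libraries labelled CTX and 3 labelled control. Cyclophosphamide is an alkylating anticancer drug that damages ovarian follicles. For dose and timing nothing is given in the sources used here. Since the labels do not say whether each library is from its own animal, the p-values reflect spread between samples that may be technical. Values are RPKM, reads scaled by gene length and library depth. Their sum over all genes still differed between libraries. It was 389708, 328258 and 335528 in CTX 1, 2 and 3, against 341995, 340264 and 347452 in control 1, 2 and 3. Differences between libraries therefore depend in part on the scaling, and levels between genes on the gene length used.

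The depth read from the steps of the values was 18140000, 22278000 and 17015000 reads in CTX 1, 2 and 3, against 15920000, 15870000 and 16793000 reads in control 1, 2 and 3. Converted back to reads by exon length, all genes together come to 1.19 to 1.20 times this depth in each library, so it is not a count of assigned reads; the cause was not tested. The libraries did not divide by treatment in their ovarian cell markers. The summed level of 9 luteal markers, which include Star, Lhcgr and Hsd17b7, was 9844, 3149 and 3020 RPKM in CTX 1, 2 and 3, against 7725, 8420 and 4102 RPKM in control 1, 2 and 3. All 9 had a log2 fold change below 0, and none passed the test. Each of the 9 was higher in CTX 1, control 1 and control 2 than in CTX 2, CTX 3 and control 3, and CTX 1 lay above control 1 and 2 for 5 of them. The sum follows Hsd3b1, the most abundant: control 3 lay below CTX 2 and 3 for 5 of the 9, such as Lhcgr at 111 and 108 RPKM in CTX 2 and 3, against 43.7 RPKM in control 3. The mean log2(RPKM + 1) of the 9 was 8.50, 6.25 and 6.25 in CTX 1, 2 and 3, against 8.22, 8.49 and 6.28 in control 1, 2 and 3. CTX 1 thus went with control 1 and 2 in these markers, and control 3 with CTX 2 and 3, across the labels. The labels were kept, and each difference between CTX and control carries this division of the libraries. The sum of 9 granulosa markers ran the other way. It was 701, 2518 and 2433 RPKM in CTX 1, 2 and 3, against 1213, 1068 and 3000 RPKM in control 1, 2 and 3. This sum follows Inha, the most abundant, and Inhbb and Foxl2 did not divide in this way. Inhbb was lower in CTX 2 and 3, at 69.0 and 71.1 RPKM, than in every control. Adipocyte markers, 8 in number, summed to 7.15, 181 and 169 RPKM in CTX 1, 2 and 3, against 8.54, 5.46 and 133 RPKM in control 1, 2 and 3, with Ucp1, the marker of brown fat, at 0.03 RPKM in CTX 1 and 0 elsewhere. In whole tissue, fewer cells of a type and less RNA per cell cannot be told apart.

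No oxidative phosphorylation gene passed the test between CTX and control. Of the 93 genes, 88 were tested, those with 1 RPKM or more in 3 or more libraries. In limma on log2(RPKM + 1), with Benjamini-Hochberg adjustment over all 14535 genes tested, 0 members were called higher or lower. Among all genes the share called was also 0% in each direction. At an unadjusted p under 0.05 there were 0 members, beside 1.16% of all genes higher and 2.29% lower. Other scalings gave 3 members with quantile normalization, 1 with trimmed-mean scaling and 1 with the 20 most abundant genes left out. Leaving out 1 library gave 3 members without CTX 3, 15 without CTX 1 and 0 otherwise. The share of all genes at this threshold was taken only with the settings above and without CTX 1. The other counts thus have no background and are not read as a result. The smallest unadjusted p of a member was 0.061 (Atp5g2), with an adjusted p of 1.00. The log2 fold change, CTX minus control, was above 0 in 73 of the 88 members, against 48.8% of all genes tested. Its median was 0.11 over the members and -0.01 over all genes. By complex the medians were 0.12 for complex I, 0.10 for complex II, 0.11 for complexes III and IV, 0.10 for complex V and 0.14 for the assembly factors. With quantile normalization, or with the 20 most abundant genes left out of the scaling, the fold change was above 0 in 63 of 88 members. Quantile normalization lowered the median to 0.045 over the members and to 0.017 in complex V, while that of the assembly factors was 0.13.

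This small shift rested on a single library, CTX 1. Over the 88 members tested, the summed level was 9806, 5568 and 5419 RPKM in CTX 1, 2 and 3. In control 1, 2 and 3 it was 6367, 6583 and 5809 RPKM. CTX 1 lay above all other libraries, and CTX 2 and 3 lay below all controls. From highest to lowest the order was CTX 1, control 2, control 1, control 3, CTX 2 and CTX 3. The sum of luteal markers ran in the same order, and their part was not tested. The sums of complexes I and IV also ran in this order, while those of complexes II, III and V did not in full. CTX 1 was the highest of the 6 libraries for 80 of the 88 members tested, against 24.0% of all genes. The 8 exceptions were Sdha, Cox7c, Cox6b2, Cox7a2l, Atp5g2, Ndufaf5, Atp5s and Atp5sl, which are listed because CTX 1 was not their highest library. Relative to the median of the other 5 libraries, CTX 1 was higher by a median of 0.66 on the log2 scale, or 1.58-fold, while the median over all genes was -0.13. This deviation was 0.67 for complex I, 0.42 for complex II, 0.81 for complex III, 0.71 for complex IV, 0.68 for complex V and 0.42 for the assembly factors. The same measure taken for the other libraries was -0.15 in CTX 2 and -0.15 in CTX 3, against 0.07, 0.08 and -0.08 in control 1, 2 and 3.

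**Figure D1:**
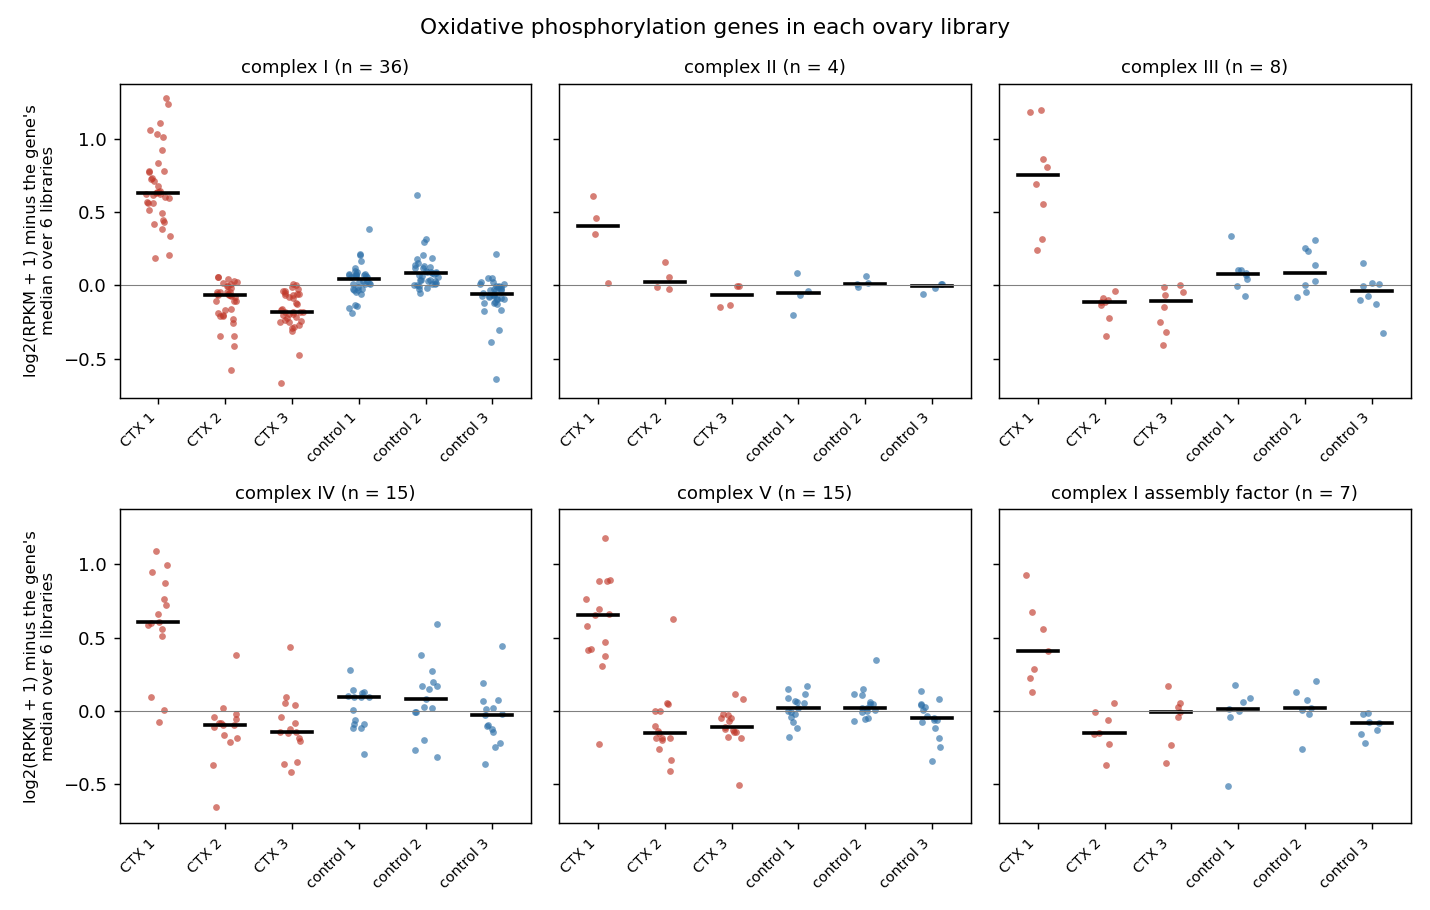
Each point is 1 gene, plotted as log2(RPKM + 1) minus that gene's median over the 6 libraries, with CTX libraries in red, control libraries in blue and black bars at the median of each library. CTX 1 lies above the other libraries in every complex, least in complex II, while CTX 2 and 3 lie level with or slightly below the controls.

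Without CTX 1 the direction turned in every complex. CTX 2 and 3 against the 3 controls gave a log2 fold change below 0 in 72 of the 88 members, where 44.2% of all genes lay below 0. The median was -0.14 over the members and 0.03 over all genes. By complex it was -0.15 for I, -0.03 for II, -0.20 for III, -0.19 for IV, -0.17 for V and -0.07 for the assembly factors. CTX 2 and 3 both lay below all controls for 40 members, against 17.0% of all genes, and both above for 3, against 22.8%. No member passed the test here either, where 0.0138% of all genes were called higher and 0.0206% lower. At an unadjusted p under 0.05 there were 14 members lower (7.05% of all genes) and 1 higher (9.59% of all genes). The smallest adjusted p was 0.197, for Ndufa6. Luteal markers were low in CTX 2 and 3 and also in control 3, and their part in the result was not tested.

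**Figure D2:**
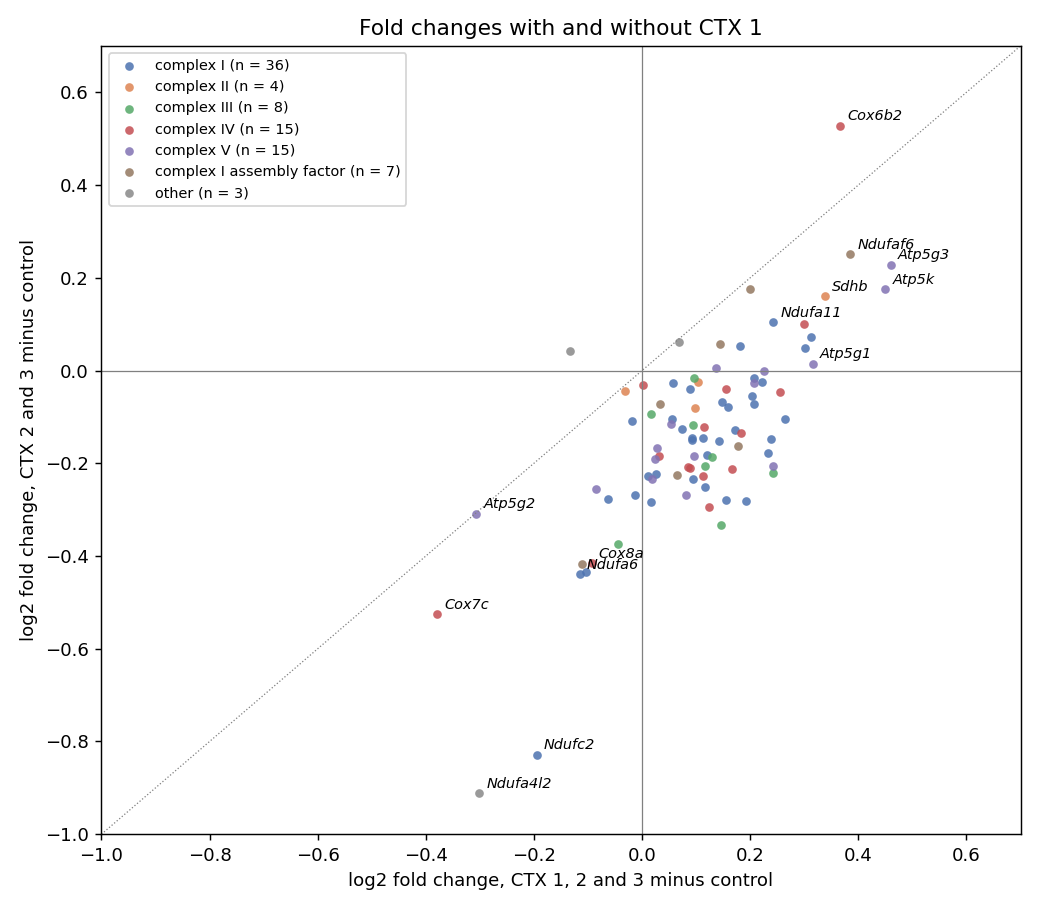
The log2 fold change of each of the 88 members from all 6 libraries (horizontal) is plotted against the log2 fold change with CTX 1 left out (vertical), coloured by complex. The axes share 5 libraries and are shown side by side only, and most points lie right of 0 on the horizontal axis and below 0 on the vertical axis.

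Only 3 members had CTX and control libraries that did not overlap. Atp5g3 and Ndufa11 were higher in all CTX libraries, where 3.32% of all genes were, and Atp5g2 was lower in all of them, where 5.50% were. Ndufa11, an accessory subunit in the membrane arm of complex I, is named for this separation after its values were seen. It had 23.4, 17.6 and 17.0 RPKM in CTX 1, 2 and 3, against 15.1, 16.3 and 16.8 RPKM in control 1, 2 and 3. The gap between CTX 3 and control 3 was small next to the lead of CTX 1. The log2 fold change was 0.24 (SE 0.15, unadjusted p = 0.148, adjusted p = 1.00). It shares 70 exonic bases with Vmac on the other strand, and reads of that stretch cannot be told apart without strand.

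The promoters of these 3 genes are shown because, alone among the members, their groups separated. They are the RefSeq windows on GRCm38.p6 from 250 bases before to 50 bases after the start, and capitals mark matches to the motif of nuclear respiratory factor 1 (NRF1), which is GCGC, any base and TGCGC, read on both strands. The window of Atp5g3 is chr2:73911277-73911576 on the minus strand, that of Atp5g2 chr15:102670998-102671297 on the minus strand, and that of Ndufa11 chr17:56717512-56717811 on the plus strand.
Atp5g3: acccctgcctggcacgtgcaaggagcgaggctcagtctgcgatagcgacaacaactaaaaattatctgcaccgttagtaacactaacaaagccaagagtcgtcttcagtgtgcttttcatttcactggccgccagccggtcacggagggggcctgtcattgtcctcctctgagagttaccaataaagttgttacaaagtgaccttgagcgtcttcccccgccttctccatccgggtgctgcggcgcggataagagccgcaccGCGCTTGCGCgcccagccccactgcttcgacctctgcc
Atp5g2: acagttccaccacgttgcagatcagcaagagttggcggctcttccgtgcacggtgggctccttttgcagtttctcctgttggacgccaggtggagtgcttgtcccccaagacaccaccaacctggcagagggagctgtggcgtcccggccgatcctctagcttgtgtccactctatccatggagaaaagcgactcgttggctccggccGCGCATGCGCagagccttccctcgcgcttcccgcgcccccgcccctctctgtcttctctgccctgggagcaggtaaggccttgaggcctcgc
Ndufa11: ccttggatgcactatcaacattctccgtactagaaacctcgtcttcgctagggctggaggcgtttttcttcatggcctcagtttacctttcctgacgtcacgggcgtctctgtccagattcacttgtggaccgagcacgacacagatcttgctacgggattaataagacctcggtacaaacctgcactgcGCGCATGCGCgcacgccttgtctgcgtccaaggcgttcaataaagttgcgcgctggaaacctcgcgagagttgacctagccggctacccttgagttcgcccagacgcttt
Each window holds 1 match, whichever way the gene's libraries lay. NRF1 is known as a regulator of many nuclear genes for mitochondrial proteins. Of 93 members, 76 had a RefSeq promoter, some with several starts, which gave 82 windows. The NRF1 motif was found in 24.4% of the members' windows and 4.60% of all 32851 windows. The ETS motif CCGGAAG, bound by GA-binding protein among others, was found in 20.7% against 8.86%, and the YY1 motif AAGATGGC in 14.6% against 2.75%. At least 1 of the 3 was present in 52.4% of the members' windows and 14.7% of all windows. A match is a run of letters and not a measured binding site.

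Complex I, the NADH dehydrogenase, had the most members. Its summed level was 3186, 1703 and 1612 RPKM in CTX 1, 2 and 3, against 2001, 2076 and 1800 RPKM in control 1, 2 and 3. All 36 subunits were highest in CTX 1. Their mean levels over the 6 libraries ran from 6.07 RPKM (Ndufb4) to 240.0 RPKM (Ndufa6), with a median of 48.4 RPKM. The 7 core subunits, which carry the flavin and iron-sulfur clusters, deviated by a median of 0.64 in CTX 1 on the log2 scale, and the 29 accessory subunits by 0.71. Without CTX 1, 32 of the 36 had a log2 fold change below 0, among them all 7 core subunits.

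Ndufa6, an accessory subunit of the LYR protein family, was the most abundant gene of complex I. It had 352, 187 and 171 RPKM in CTX 1, 2 and 3, against 249, 253 and 228 RPKM in control 1, 2 and 3. CTX 2 and 3 lay below every control and CTX 1 above. The log2 fold change was -0.12 (SE 0.29, adjusted p = 1.00) with all libraries and -0.44 (SE 0.10, unadjusted p = 0.0067, adjusted p = 0.197) without CTX 1. Ndufb9, another LYR subunit, had 232, 133 and 115 RPKM in CTX 1, 2 and 3, against 147, 146 and 128 RPKM in control 1, 2 and 3, with a log2 fold change of 0.12 (SE 0.27).

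Ndufc2, an accessory subunit of the membrane arm, had the largest SE of the fold change of the members tested. It had 291, 79.8 and 74.8 RPKM in CTX 1, 2 and 3, against 156, 184 and 91.4 RPKM in control 1, 2 and 3. CTX 1, control 1 and control 2 were high and CTX 2, CTX 3 and control 3 low. The sums of the members tested and of the luteal markers ran in the same order, and the part of luteal markers was not tested. Ndufc2 had a log2 fold change of -0.20 (SE 0.57), the lowest of complex I. Ndufc1, its partner in the membrane arm, had 67.2, 24.4 and 24.5 RPKM in CTX 1, 2 and 3, against 31.4, 34.4 and 24.8 RPKM in control 1, 2 and 3. The groups overlapped, with a log2 fold change of 0.19 (SE 0.40).

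The largest positive log2 fold change of complex I was that of Ndufb2, an accessory subunit, at 0.31 (SE 0.23). It had 10.4, 6.11 and 5.73 RPKM in CTX 1, 2 and 3, against 5.31, 6.39 and 5.12 RPKM in control 1, 2 and 3. The groups overlapped, and the gene shares 447 exonic bases with neighbouring genes, among them Braf. At the other end of the range, Ndufs1 and Ndufab1 deviated least in CTX 1 among the subunits of complex I, by 0.24 and 0.21, and are named for that after their values were seen. Ndufs1, the largest iron-sulfur subunit, had 19.1, 15.4 and 16.0 RPKM in CTX 1, 2 and 3, against 17.4, 17.8 and 15.8 RPKM in control 1, 2 and 3. Ndufab1, the mitochondrial acyl carrier protein, had 14.5, 12.4 and 11.7 RPKM in CTX 1, 2 and 3, against 12.7, 12.5 and 11.6 RPKM in control 1, 2 and 3.

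The 7 assembly factors, which help to build complex I but are not part of it, lay lower, with a summed level of 122, 74.3 and 76.3 RPKM in CTX 1, 2 and 3, against 85.3, 85.7 and 77.5 RPKM in control 1, 2 and 3. Ndufaf6 had the third-smallest p among members with a positive log2 fold change. It had 5.53, 3.89 and 4.0 RPKM in CTX 1, 2 and 3, against 2.44, 3.93 and 3.23 RPKM in control 1, 2 and 3, and CTX 2 lay just below control 2. The log2 fold change was 0.38 (SE 0.19, unadjusted p = 0.091, adjusted p = 1.00). Ndufaf2 shared 64.1% of the 50-base runs of its transcripts with other genes, and its level is therefore uncertain.

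Complex II, succinate dehydrogenase, which feeds electrons from the citric acid cycle and has no mitochondrially encoded subunit, deviated least in CTX 1 of the complexes. Its 4 genes averaged from 30.6 RPKM (Sdhc) to 97.0 RPKM (Sdha) over the 6 libraries. Sdha, the flavoprotein that oxidises succinate, had 97.6, 94.4 and 95.8 RPKM in CTX 1, 2 and 3, against 102, 95.6 and 96.8 RPKM in control 1, 2 and 3. All 6 values lay close together, and the log2 fold change was -0.03 (SE 0.10). Sdhb, the iron-sulfur subunit, had 69.8, 50.6 and 45.2 RPKM in CTX 1, 2 and 3, against 39.3, 45.5 and 43.4 RPKM in control 1, 2 and 3. CTX 3 lay just below control 2, and the log2 fold change was 0.34 (SE 0.18, unadjusted p = 0.106, adjusted p = 1.00). The membrane anchors Sdhc and Sdhd had log2 fold changes of 0.10 (SE 0.14) and 0.10 (SE 0.18). Sdhc had 37.9, 30.7 and 26.9 RPKM in CTX 1, 2 and 3, against 28.7, 29.9 and 29.2 RPKM in control 1, 2 and 3. Sdhd had 115, 82.7 and 74.97 RPKM in CTX 1, 2 and 3, against 79.4, 87.0 and 83.8 RPKM in control 1, 2 and 3. CTX 1 lay above all controls in both anchors, and CTX 2 in Sdhc alone.

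Complex III, which passes electrons from ubiquinol to cytochrome c, deviated most in CTX 1. The Uqcrc1 symbol stood on 2 identifiers, and the second, at 0 in all libraries, was not tested, which left 8 genes with means from 45.6 RPKM (Uqcrc1) to 135 RPKM (Uqcr10). Uqcr10, a small subunit and the most abundant of the complex, had 214, 111 and 109.8 RPKM in CTX 1, 2 and 3, against 131, 134 and 113 RPKM in control 1, 2 and 3. CTX 2 and 3 lay below all controls. Uqcr11, another small subunit, had 199.9, 81.4 and 65.7 RPKM in CTX 1, 2 and 3, against 94.1, 105 and 80.1 RPKM in control 1, 2 and 3. Uqcrq, which lies beside cytochrome b, had the largest log2 fold change of the complex, 0.24 (SE 0.41), with 111, 45.2 and 38.4 RPKM in CTX 1, 2 and 3, against 51.0, 59.6 and 38.1 RPKM in control 1, 2 and 3. For both genes the spread between the CTX libraries exceeded the difference between the groups. Uqcrfs1, the Rieske iron-sulfur protein, had the lowest, -0.05 (SE 0.29), with 151, 73.3 and 78.3 RPKM in CTX 1, 2 and 3, against 98.1, 109.9 and 88.6 RPKM in control 1, 2 and 3. Without CTX 1 its log2 fold change was -0.37 (SE 0.12, unadjusted p = 0.021, adjusted p = 0.257).

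Complex IV, cytochrome c oxidase, which reduces oxygen, held the most abundant member, Cox6a1. This common isoform had 653, 270.0 and 276 RPKM in CTX 1, 2 and 3, against 334, 399.8 and 281 RPKM in control 1, 2 and 3. CTX 1 was the highest and CTX 2 and 3 the lowest, and the log2 fold change was 0.12 (SE 0.37). Cox8a, the common form of its subunit, had 469, 238 and 241 RPKM in CTX 1, 2 and 3, against 329.7, 346 and 287 RPKM in control 1, 2 and 3. Its log2 fold change was -0.09 (SE 0.29) with all libraries and -0.42 (SE 0.12, unadjusted p = 0.016) without CTX 1.

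Cox7c had the largest negative log2 fold change of the members tested, -0.38 (SE 0.19, unadjusted p = 0.097, adjusted p = 1.00). This small subunit had 51.7, 32.3 and 44.5 RPKM in CTX 1, 2 and 3, against 62.7, 51.1 and 51.9 RPKM in control 1, 2 and 3. CTX 1 overlapped the controls, and CTX 2 and 3 lay below them. Cox7c shared 22.1% of its 50-base runs with 3 other genes, all of them pseudogenes, so reads could have been placed elsewhere.

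Several subunits of complex IV exist as isoforms made in particular tissues. Of 7 such genes, 4 were not tested because their levels were low: Cox6a2 and Cox8b, the heart and skeletal muscle forms, and Cox8c and Cox7b2, known from testis. Cox6a2 had 0.34, 0.89 and 0.27 RPKM in CTX 1, 2 and 3, against 0.48, 0.48 and 0.27 RPKM in control 1, 2 and 3. Cox8b did not exceed 0.49 RPKM, Cox7b2 0.17 and Cox8c 0.13 in any library. Cox7a1, the muscle form of Cox7a2, was present with 16.2, 7.27 and 8.56 RPKM in CTX 1, 2 and 3, against 7.25, 12.5 and 7.36 RPKM in control 1, 2 and 3. Of 8 skeletal muscle markers, Eno3 and Mylpf were high enough to be tested. Eno3 had 11.2, 9.91 and 11.2 RPKM in CTX 1, 2 and 3, against 10.6, 9.38 and 12.98 RPKM in control 1, 2 and 3. Mylpf, like Cox7a1, was highest in CTX 1, with 3.74, 2.23 and 1.06 RPKM in CTX 1, 2 and 3, against 2.20, 1.78 and 2.02 RPKM in control 1, 2 and 3. Myh4 was at 0 in all 6 libraries and Ckm did not exceed 0.12 RPKM. The 8 summed to 16.0, 13.9 and 13.6 RPKM in CTX 1, 2 and 3, against 14.4, 12.4 and 17.3 RPKM in control 1, 2 and 3, and their part in the level of Cox7a1 was not tested. The common form Cox7a2 had 122, 67.4 and 62.7 RPKM in CTX 1, 2 and 3, against 62.5, 74.0 and 65.6 RPKM in control 1, 2 and 3. The log2 fold changes were 0.18 (SE 0.33) for Cox7a1 and 0.25 (SE 0.26) for Cox7a2, and both genes were highest in CTX 1.

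Cox6b2, known from testis, ran against its common partner. It had 9.50, 13.4 and 13.95 RPKM in CTX 1, 2 and 3, against 9.18, 7.90 and 10.6 RPKM in control 1, 2 and 3. CTX 2 and 3 were the highest, and CTX 1 lay among the controls. The log2 fold change was 0.37 (SE 0.18, unadjusted p = 0.088, adjusted p = 1.00), and 0.53 (SE 0.13, unadjusted p = 0.0091, adjusted p = 0.209) without CTX 1. The common form Cox6b1 had 379.9, 209 and 167 RPKM in CTX 1, 2 and 3, against 239.5, 252 and 174 RPKM in control 1, 2 and 3, with a log2 fold change of 0.11 (SE 0.33). The summed level of 10 oocyte markers was 103, 378 and 369 RPKM in CTX 1, 2 and 3, against 164, 139.5 and 331 RPKM in control 1, 2 and 3, and its part in the order of Cox6b2 was not tested.

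Cox4i2, a form of Cox4 known for its expression in lung and under low oxygen, had 8.39, 4.95 and 5.44 RPKM in CTX 1, 2 and 3, against 4.06, 4.40 and 6.05 RPKM in control 1, 2 and 3. Control 3 lay above CTX 2 and 3, and the log2 fold change was 0.30 (SE 0.22). The common form Cox4i1 was far more abundant, with 283, 177 and 169.7 RPKM in CTX 1, 2 and 3, against 189, 187 and 190.5 RPKM in control 1, 2 and 3. Only CTX 1 lay above its controls, and the log2 fold change was 0.11 (SE 0.22). Cox7a2l, which takes part in joining complexes III and IV into supercomplexes, had 163, 148 and 157 RPKM in CTX 1, 2 and 3, against 144, 127 and 208 RPKM in control 1, 2 and 3. It was highest in control 3, and its log2 fold change was 0.00 (SE 0.20).

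**Figure D3:**
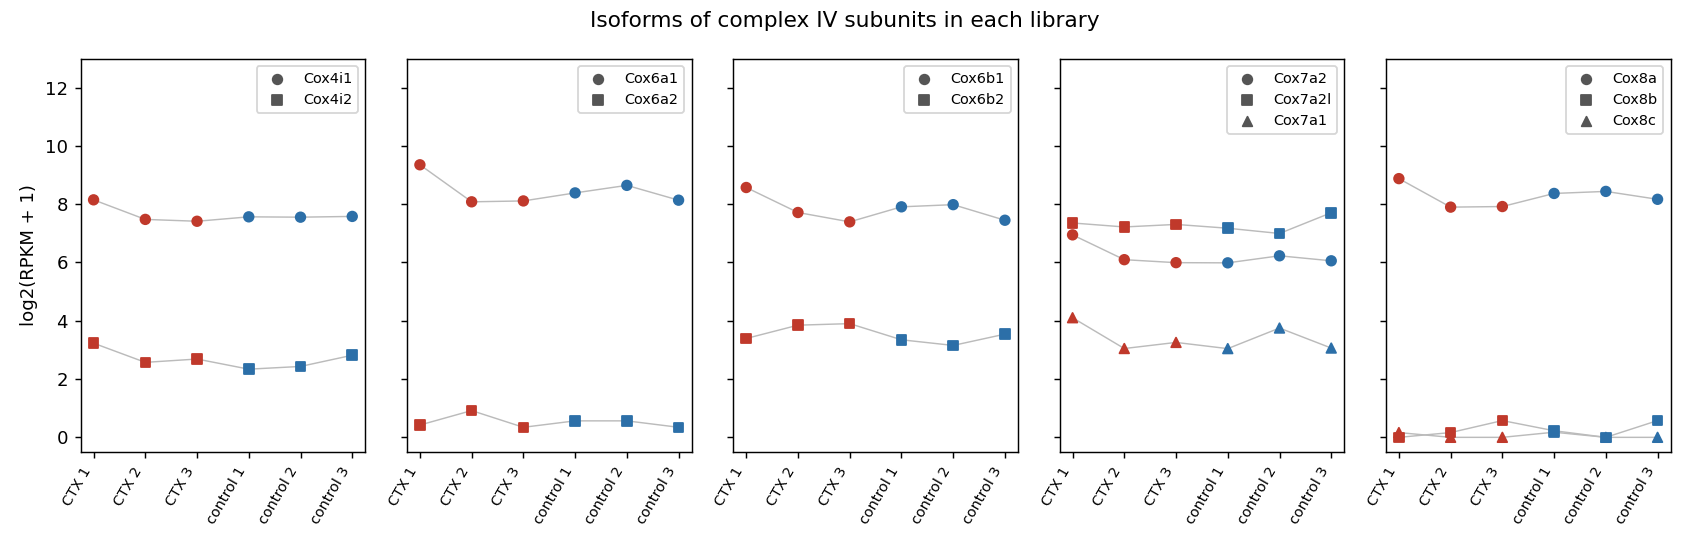
Levels of the isoform sets of complex IV subunits are shown as log2(RPKM + 1) in each library, CTX in red and control in blue, with a marker shape for each isoform. Cox4i1, Cox6a1, Cox6b1 and Cox8a lie far above their tissue-restricted forms, and Cox6b2 is highest in CTX 2 and 3 where Cox6b1 is not.

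Complex V, the ATP synthase, was represented by 5 subunits of the catalytic F1 part and 10 of the membrane part and stalk. Mean levels ran from 5.19 RPKM (Atp5g2) to 282 RPKM (Atp5b). The F1 subunits Atp5b and Atp5a1 were the most abundant. Atp5b had 360.2, 251 and 257 RPKM in CTX 1, 2 and 3, against 287, 281 and 258 RPKM in control 1, 2 and 3. Atp5a1 had 341, 263 and 257 RPKM in CTX 1, 2 and 3, against 262, 266 and 249 RPKM in control 1, 2 and 3. In both, CTX 1 stood above all controls. CTX 2 and 3 lay below all controls in Atp5b and among them in Atp5a1. Their log2 fold changes were 0.05 (SE 0.18) and 0.14 (SE 0.16). Atp5k, subunit e of the membrane part, is named for the size of its fold change after its values were seen. It had 71.5, 59.6 and 26.6 RPKM in CTX 1, 2 and 3, against 40.1, 36.4 and 29.97 RPKM in control 1, 2 and 3. CTX 3 lay below all controls, and the log2 fold change was 0.45 (SE 0.36).

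The 3 genes Atp5g1, Atp5g2 and Atp5g3 encode the same mature protein, subunit c, which forms the rotating ring of the membrane part. Their products differ in the leading stretch that directs import and is cut off. Atp5g3 was the main form by level and had the largest positive log2 fold change of all members tested. It had 246, 149.9 and 153 RPKM in CTX 1, 2 and 3, against 127, 139 and 121 RPKM in control 1, 2 and 3. All CTX libraries lay above all controls, CTX 1 by far the most. The means were 183 ± 54.6 RPKM in CTX and 129 ± 8.82 RPKM in control (SD, n = 3 each), and the log2 fold change was 0.46 (SE 0.22, unadjusted p = 0.076, adjusted p = 1.00). Without CTX 1 it was 0.23 (SE 0.10, unadjusted p = 0.059).

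Atp5g2 lay the other way. It had 4.54, 3.86 and 5.26 RPKM in CTX 1, 2 and 3, against 5.70, 5.68 and 6.12 RPKM in control 1, 2 and 3. No CTX library reached the lowest control. The means were 4.55 ± 0.70 RPKM in CTX and 5.83 ± 0.25 RPKM in control (SD, n = 3 each), and the log2 fold change was -0.31 (SE 0.13, unadjusted p = 0.061, adjusted p = 1.00). It was one of 3 members, with Cox6b2 and Atp5sl, for which CTX 1 lay below the median of the other libraries, and without CTX 1 the log2 fold change was again -0.31. Atp5g1 had 10.2, 4.49 and 5.55 RPKM in CTX 1, 2 and 3, against 4.74, 5.25 and 4.83 RPKM in control 1, 2 and 3, with a log2 fold change of 0.32 (SE 0.27). CTX 1 alone stood above its controls by a wide margin.

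The coding sequences of subunit c are shown because they bear on whether reads of the 3 genes can be told apart. The last 78 codons of each gene encode identical residues, and they were spliced from the GENCODE M21 transcripts on GRCm38, all on the minus strand. They span chr11:96073107-96073644 for Atp5g1, chr15:102663017-102665175 for Atp5g2 and chr2:73908596-73909305 for Atp5g3. Capitals mark the 63 of 234 bases that are not the same in all 3 genes.
Atp5g1: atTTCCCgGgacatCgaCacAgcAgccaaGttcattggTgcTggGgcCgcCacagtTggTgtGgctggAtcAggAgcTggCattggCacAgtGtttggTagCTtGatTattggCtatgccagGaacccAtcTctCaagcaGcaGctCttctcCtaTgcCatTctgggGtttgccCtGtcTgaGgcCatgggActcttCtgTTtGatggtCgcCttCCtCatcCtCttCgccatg
Atp5g2: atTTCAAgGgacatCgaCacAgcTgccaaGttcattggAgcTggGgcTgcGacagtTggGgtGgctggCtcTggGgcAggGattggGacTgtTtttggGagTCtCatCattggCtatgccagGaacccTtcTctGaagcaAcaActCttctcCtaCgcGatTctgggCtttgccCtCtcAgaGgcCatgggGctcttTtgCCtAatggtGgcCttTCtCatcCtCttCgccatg
Atp5g3: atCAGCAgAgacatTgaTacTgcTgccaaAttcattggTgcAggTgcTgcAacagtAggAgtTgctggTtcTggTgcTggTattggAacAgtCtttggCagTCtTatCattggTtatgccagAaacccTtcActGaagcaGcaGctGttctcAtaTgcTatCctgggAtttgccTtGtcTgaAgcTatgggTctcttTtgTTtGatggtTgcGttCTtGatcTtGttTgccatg
Over these bases Atp5g1 and Atp5g2 were 84.6% identical, Atp5g1 and Atp5g3 78.6%, and Atp5g2 and Atp5g3 77.4%. The longest identical run was 20 bases between Atp5g1 and Atp5g2, 11 between Atp5g1 and Atp5g3 and 8 between Atp5g2 and Atp5g3. Over whole transcripts, none of the 50-base runs of Atp5g3 occurred in another gene, while 38.3% of those of Atp5g2 and 11.1% of those of Atp5g1 did. Those of Atp5g2 were shared with 3 other genes, among them 2 pseudogenes, and Atp5g2 also overlaps the microRNA gene Mir688 over 75 bases. How such reads were counted is not given in the sources used here, so the level of Atp5g2 is uncertain. The level of Atp5g1 depends on the gene length used, because its exons cover 4912 bases while its shortest coding transcript has 596.

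**Figure D4:**
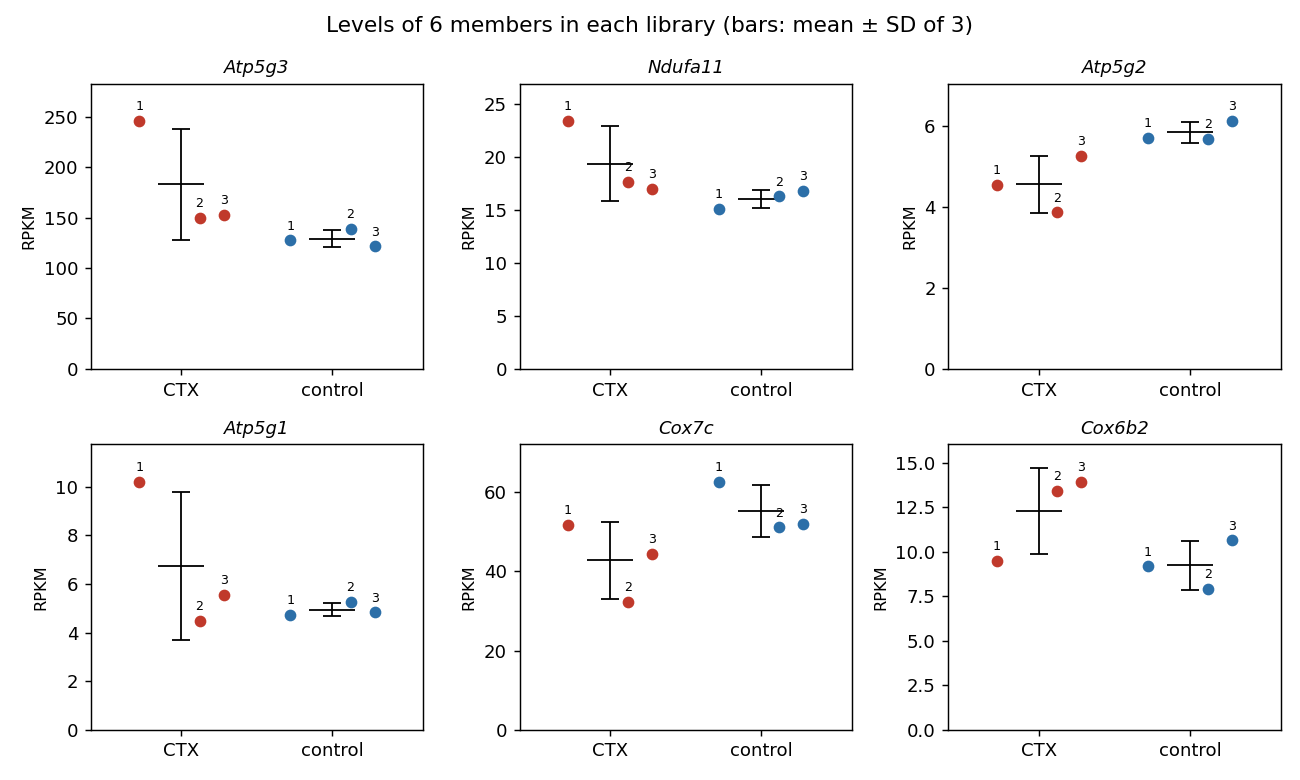
RPKM of 6 members in each library is shown for CTX (red, left) and control (blue, right), with library numbers above the points and the mean ± SD of 3 libraries in black. The groups do not overlap for Atp5g3, Ndufa11 and Atp5g2, while they overlap for Atp5g1, Cox7c and Cox6b2.

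The 3 genes named like subunits but outside the complexes did not follow them as a group. Ndufa4l2, a relative of Ndufa4 known to be induced by low oxygen, had 18.7, 4.67 and 4.41 RPKM in CTX 1, 2 and 3, against 10.01, 13.4 and 6.14 RPKM in control 1, 2 and 3. Like Ndufc2 it was high in CTX 1, control 1 and control 2, as the luteal markers and the sum of the members tested were. Its log2 fold change was -0.30 (SE 0.55), and -0.91 (SE 0.30, unadjusted p = 0.025, adjusted p = 0.269) without CTX 1. Atp5sl was lowest in CTX 1, with 8.20, 12.5 and 12.01 RPKM in CTX 1, 2 and 3, against 10.8, 9.70 and 15.8 RPKM in control 1, 2 and 3. With a log2 fold change of -0.13 (SE 0.23), its groups overlapped.

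The lead of CTX 1 was larger in short genes. Among members with under 1000 exonic bases its median deviation was 0.89 (19 genes), from 1000 to under 2000 bases 0.63 (35 genes), from 2000 to under 4000 bases 0.62 (23 genes) and from 4000 bases on 0.48 (11 genes). In all genes tested the medians were -0.00095, 0.15, -0.016 and -0.25 in the same classes. The members' medians lay above those of all genes in each class. Across genes, which are not independent replicates and share the same libraries, Spearman's rho between exon length and the deviation was -0.39 over 88 members and -0.25 over 14477 genes.

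**Figure D5:**
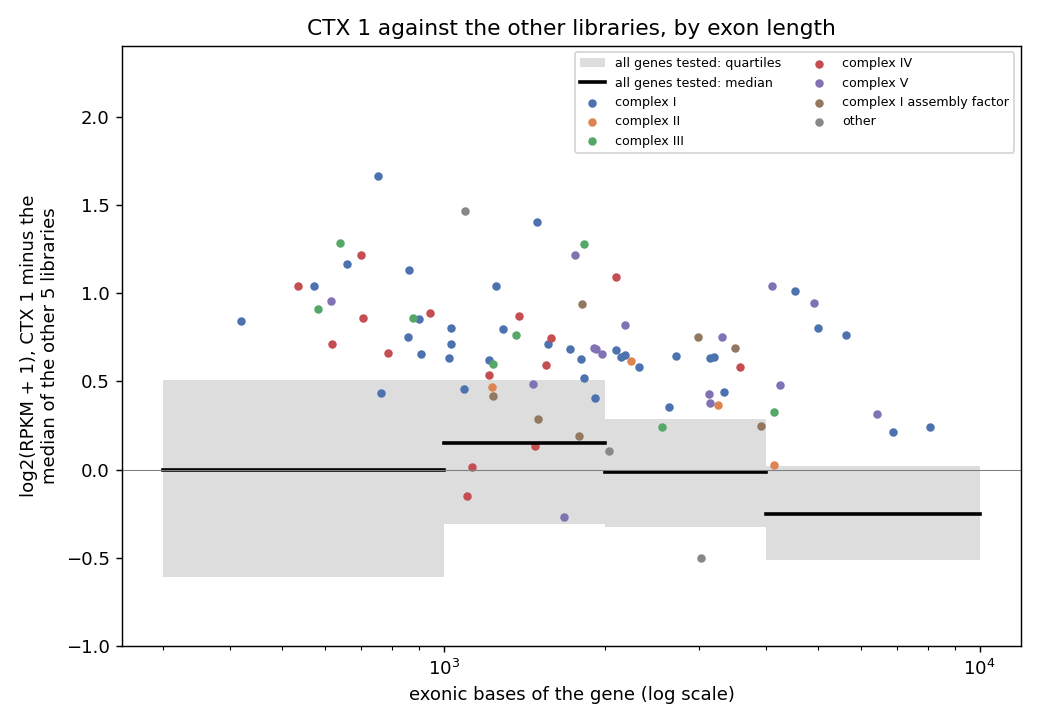
For each member the deviation of CTX 1 from the median of the other 5 libraries, in log2(RPKM + 1), is plotted against the exonic bases of the gene on a log axis, with grey bands for the quartiles and black lines for the median of all genes tested in 4 length classes. Members lie above the median line of their class with few exceptions. Their median is highest in the shortest class, though single longer genes lie above many of the shortest.

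Other mitochondrial genes deviated in CTX 1 to different degrees and in both directions, and none of their lists held a called gene (background 0% in each direction). The 9 respiratory chain subunits and carriers outside the naming rule, among them cytochrome c and its reductase partner Cyc1, deviated in CTX 1 by a median of 0.42. Usmg5, a small subunit of the ATP synthase membrane part, had 249, 86.3 and 99.8 RPKM in CTX 1, 2 and 3, against 152, 151 and 105 RPKM in control 1, 2 and 3. Cyc1, cytochrome c1 of complex III, had 159, 110.4 and 105 RPKM in CTX 1, 2 and 3, against 96.0, 104 and 99.0 RPKM in control 1, 2 and 3. All CTX libraries lay above all controls for 2 of the 9 genes, Cyc1 among them, and for 3.32% of all genes. The log2 fold changes were -0.06 for Usmg5 and 0.30 (unadjusted p = 0.147) for Cyc1.

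Of 77 mitochondrial ribosomal protein genes, 64 were highest in CTX 1, and the list deviated by a median of 0.43. Mrpl42, the most abundant of them, had 101, 53.4 and 48.2 RPKM in CTX 1, 2 and 3, against 59.5, 68.2 and 59.3 RPKM in control 1, 2 and 3. Mrps6 had the smallest p, with 32.2, 24.98 and 26.8 RPKM in CTX 1, 2 and 3, against 19.0, 21.8 and 18.3 RPKM in control 1, 2 and 3 (log2 fold change 0.48, unadjusted p = 0.011, adjusted p = 1.00). The 81 cytoplasmic ribosomal protein genes, whose products translate nuclear messages and whose counts are uncertain because of many pseudogenes, deviated by 0.42. Among them Rplp1 had 2143, 1650.0 and 1272 RPKM in CTX 1, 2 and 3, against 1121, 1199 and 1319 RPKM in control 1, 2 and 3. Rpl13 had 28.6, 21.3 and 23.8 RPKM in CTX 1, 2 and 3, against 16.9, 18.4 and 21.04 RPKM in control 1, 2 and 3 (log2 fold change 0.37, unadjusted p = 0.046, adjusted p = 1.00). All CTX libraries lay above all controls for 3 of the 81 genes, Rpl13 among them, and for 3.32% of all genes.

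The 35 assembly factors outside the naming rule deviated in CTX 1 by a median of 0.20. Cox14, which acts in the assembly of complex IV, had 132, 67.5 and 64.9 RPKM in CTX 1, 2 and 3, against 78.4, 82.3 and 67.3 RPKM in control 1, 2 and 3. Lrpprc, which stabilises mitochondrial messenger RNA, had 9.65, 15.5 and 15.6 RPKM in CTX 1, 2 and 3, against 8.92, 8.91 and 11.5 RPKM in control 1, 2 and 3. It was highest in CTX 2 and 3, unlike most subunits, and its log2 fold change was 0.41 (unadjusted p = 0.095, adjusted p = 1.00). The list of citric acid cycle genes also deviated by 0.20. It is wider than the cycle, as it holds Pdhb, a subunit of pyruvate dehydrogenase, which acts before it. Pdhb had 107, 78.6 and 83.7 RPKM in CTX 1, 2 and 3, against 90.6, 93.3 and 76.4 RPKM in control 1, 2 and 3. Idh3a, a subunit of the NAD-dependent isocitrate dehydrogenase, had 43.6, 32.8 and 35.4 RPKM in CTX 1, 2 and 3, against 31.2, 35.5 and 30.8 RPKM in control 1, 2 and 3. In both, CTX 1 was highest and the other libraries overlapped. The 11 regulators of mitochondrial biogenesis deviated by -0.19. One of them, Yy1, had 31.2, 29.3 and 31.7 RPKM in CTX 1, 2 and 3, against 31.9, 31.8 and 29.6 RPKM in control 1, 2 and 3. Tfb2m, a factor of mitochondrial transcription, had 7.63, 7.70 and 8.26 RPKM in CTX 1, 2 and 3, against 8.26, 8.52 and 9.60 RPKM in control 1, 2 and 3. Neither gene was highest in CTX 1.

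Most of the 13 subunits encoded in mitochondrial DNA were low in CTX 1. Their deviation there had a median of -0.36 on the log2 scale, against -0.13 for all genes tested. Of the 13, 3 lay above the median of the other libraries, as did 5680 of all 14535 genes tested. Their summed level was 15691, 22405 and 21115 RPKM in CTX 1, 2 and 3, against 22174, 21812 and 22295 RPKM in control 1, 2 and 3. The library with the highest nuclear-encoded sum thus had the lowest mitochondrially encoded sum. The catalytic subunit of complex IV, mt-Co1, had 5289, 7948 and 8204 RPKM in CTX 1, 2 and 3, against 8131, 7425 and 8729 RPKM in control 1, 2 and 3. The gene mt-Nd2, a subunit of complex I, had 1740.0, 2238 and 1991 RPKM in CTX 1, 2 and 3, against 2559, 2807 and 2094 RPKM in control 1, 2 and 3. The log2 fold changes were -0.20 for mt-Co1 and -0.32 for mt-Nd2, and neither passed the test.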

How the data were processed

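RNA from snap-frozen whole ovaries went into Illumina TruSeq libraries, per the labels' protocols, with 3 CTX and 3 control libraries. The authors deposited 1 value per gene and library, taken as RPKM. No header names this unit; it was read from the values, because multiplied by exon length they came out whole, to a tolerance of 0.2 reads, for 97.6 to 98.0% of low values (up to 15 reads, exons up to 1000 bases). The submitters' processing notes name Bowtie 0.12.2 and mm10. For the counter, annotation and strand use, nothing is given in the sources used here. Longer genes lose their read counts to rounding, so no count model or counting interval is given.

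Values were transformed as log2(RPKM + 1), which understates fold changes of low genes. The 14535 genes with 1 RPKM or more in 3 or more libraries were compared, CTX minus control, by a two-sided limma test (limma 3.58.1, R 4.3.3, mean-variance trend), with calls where the p adjusted by Benjamini-Hochberg was under 0.05. The procedure was tested on simulated data with independent noise in each gene and changes larger than those of the members. The simulation held no division of the libraries across the labels, so it does not measure power or error in these data. Exon lengths and transcripts came from GENCODE M21 (GRCm38, the same assembly as mm10), which matched 92 of the 93 members, and promoters from RefSeq.

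The members and lists were chosen with earlier results of these data known. Members named are all of complex II, the isoform sets, the 2 most abundant and the extreme fold changes of each other complex, the 3 smallest p in each direction, the 3 highest and 3 lowest in CTX 1, and those not tested; of each other mitochondrial or ribosomal list, the most abundant and the smallest p. Others are marked. Alternatives changed the pseudocount, filter, scaling, variance trend, replicate block and the libraries used.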

Additional observations from a re-analysis of the deposited data

How the results depend on the processing

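No oxidative phosphorylation gene was called under any alternative. Leaving out 1 library at a time, 0 to 2 genes of the whole table were called higher and 0 to 3 lower, all of them without CTX 1. The medians of the members' log2 fold change were positive with all libraries and under every change of pseudocount, filter, scaling and variance trend, and negative without CTX 1. Over the libraries left out they ran from -0.14 to 0.25 for all members, -0.15 to 0.27 for complex I, -0.035 to 0.22 for complex II, -0.20 to 0.25 for complex III, -0.19 to 0.27 for complex IV, -0.17 to 0.25 for complex V and -0.071 to 0.20 for the assembly factors, with the lowest value without CTX 1 in each. The deviation of CTX 1 over the members was 0.79 with trimmed-mean scaling, 0.38 with quantile normalization and 0.51 with the 20 most abundant genes left out of the scaling, and ran from 0.63 to 0.71 as other libraries were left out; the cause was not tested. With quantile normalization the median was 0.047 for complex I, 0.043 for II, 0.034 for III, 0.064 for IV, 0.017 for V and 0.13 for the assembly factors, and with the 20 most abundant genes left out it was 0.056 to 0.11. Members named by the choices stated above whose sign turned as a library was left out are given by their range. Members named otherwise are not all covered, such as Ndufab1, at 0.058 with all libraries and -0.026 without CTX 1. In complex I the log2 fold change ran from -0.44 to 0.077 for Ndufa6, -0.18 to 0.32 for Ndufb9, -0.83 to 0.14 for Ndufc2 and -0.28 to 0.43 for Ndufc1. In complexes II and III the log2 fold change ran from -0.026 to 0.21 for Sdhc, -0.081 to 0.22 for Sdhd, -0.19 to 0.29 for Uqcr10, -0.33 to 0.46 for Uqcr11, -0.22 to 0.53 for Uqcrq and -0.37 to 0.14 for Uqcrfs1. In complex IV the log2 fold change ran from -0.12 to 0.25 for Cox4i1, -0.29 to 0.34 for Cox6a1, -0.23 to 0.36 for Cox6b1, -0.13 to 0.42 for Cox7a1, -0.046 to 0.43 for Cox7a2, -0.15 to 0.21 for Cox7a2l and -0.42 to 0.073 for Cox8a. In complex V and the genes outside the complexes the log2 fold change ran from -0.11 to 0.15 for Atp5b, -0.27 to 0.061 for Atp5sl and -0.91 to 0.021 for Ndufa4l2. Cox7a2l, near 0 with all libraries, was -0.050 with quantile normalization and -0.040 without the 20 most abundant genes. With the replicate number as a replicate block the median over the members was 0.11 and 0 genes were called. The deviations of same-numbered libraries from their own group means correlated at 0.40, -0.54 and 0.60. With 3 libraries a group such values are tied together. They cannot show whether same-numbered libraries were handled together, which the labels do not say. In the same deviations CTX 1 correlated at 0.61 with control 2 and -0.66 with control 3. Control 3 correlated at 0.60 with both CTX 2 and CTX 3. Because the deviations within a group sum to 0, these values largely restate each other. They describe the division across the labels given for the luteal markers and are not separate evidence of it. With 3 libraries a group and an SE of 0.10 to 0.57 for the members named, small differences were not detectable. The SE of the luteal marker Star was larger, at 0.86. RPKM rounding limits low genes most.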
